A study of Mus musculus with 12 samples.

Results

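Chromatin accessibility was described at 10 genes whose somatic mutations are known to drive clonal hematopoiesis in people: Dnmt3a, Tet2, Asxl1, Ppm1d, Trp53, Jak2, Srsf2, Sf3b1, Idh2 and Cbl. The members are ATAC-seq peaks whose centre lies in one of these genes or within 10 kb of its ends, on RefSeq positions of GRCm38, each peak going to the nearest gene. This gave 81 peaks of the 75281 in the deposited table, and all 81 passed the filter on low counts. The set was selected on measured age differences of these same counts, among them a strong loss inside Ppm1d, as well as on the known roles of the genes. Age differences at the members are therefore given as a description without p-values, and nothing is supported with them. At the edge of the 10 kb limit, the last 2 peaks inside both lay 9.96 kb away, from Jak2 with a log2 fold change of 0.07 and from Idh2 with 0.37, which was called higher. The first peak outside lay 10.09 kb from Srsf2 with -0.05.

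The libraries came from bone marrow of mice of the inbred NZO/HILtJ strain, known for obesity, with no transgene, deletion or treatment named in the labels. There were 4 groups of 3 mice: females aged 18 months, males aged 18 months, females aged 3 months and males aged 3 months. In ATAC-seq a transposase inserts sequencing adapters where nucleosomes leave DNA exposed, so reads over a region measure how open it is. The labelled protocol describes a sort of CD3e and CD8 T cells, while the sample labels name bone marrow and no sorted cells. Of lists of marker genes, 20 of 20 erythroid and 24 of 25 myeloid genes had a peak within 3 kb of their start, against 10 of 17 T cell genes, and Cd3e, Cd4, Cd8a and Cd8b1 had none.

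Clonal hematopoiesis is the growth of a large share of blood cells from a single mutated stem cell, and it becomes more common with age. The genes act in a few known processes: writing and erasing DNA methylation, Polycomb-linked chromatin control, the p53 response to DNA damage, cytokine signalling and splicing. The data hold no mutation calls. They show how open these loci were in bulk marrow, where fewer cells of a type and less accessibility per cell cannot be told apart.

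Depth was 7668099 to 12756647 counts in peaks per library, and a member peak held 16 to 1850 counts in a library. Levels are given in CPM, the count brought to a common library total with factors from the trimmed mean of M values (TMM). The 6 sequencing runs, numbered 14, 15 and 28 to 31 in the labels, held the ages apart: 0 runs held both, so age, run and date cannot be told apart. Marker genes moved with age as well. The 20 erythroid genes summed to 451 to 512 CPM at 18 months and 822 to 1075 CPM at 3 months, and the 24 myeloid genes to 500 to 575 CPM at 18 months. At 3 months the myeloid sum was 347 to 421 CPM in 5 libraries and 591 CPM in the male library BM-253, which stood apart. The part of these shifts in any member's result was not tested.

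The sequences of 4 promoters show the kind of start sites that the comparisons turn on. Ppm1d and Idh2 are the 2 promoters called lower at 18 months under every scaling tried, Jak2 is, with Ppm1d, a promoter whose ages did not overlap, and Tet2 is the one whose fold change was nearest to zero with TMM, though not with abundance or width offsets. Each is the 250 bases before the RefSeq start on GRCm38.p6, 5′ to 3′ on the gene's strand. Capitals mark matches to the searched motifs on either strand: the GC box GGGCGG, the CCAAT box, the cyclic AMP response element (CRE) TGACGTCA, the E-box CACGTG, the NRF1 motif, the GATA motif AGATAA, the AP-1 motif TGANTCA and the ETS motif CCGGAAGT. The windows are chr11:85311004-85311253 (plus strand), chr7:80115351-80115600 (minus), chr19:29251553-29251802 (plus) and chr3:133544391-133544640 (minus), in the order shown.
Ppm1d: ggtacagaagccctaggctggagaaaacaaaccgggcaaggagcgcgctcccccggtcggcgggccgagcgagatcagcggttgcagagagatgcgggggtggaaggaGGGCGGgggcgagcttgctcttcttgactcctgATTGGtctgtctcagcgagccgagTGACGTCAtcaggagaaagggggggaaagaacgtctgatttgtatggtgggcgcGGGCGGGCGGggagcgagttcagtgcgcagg
Idh2: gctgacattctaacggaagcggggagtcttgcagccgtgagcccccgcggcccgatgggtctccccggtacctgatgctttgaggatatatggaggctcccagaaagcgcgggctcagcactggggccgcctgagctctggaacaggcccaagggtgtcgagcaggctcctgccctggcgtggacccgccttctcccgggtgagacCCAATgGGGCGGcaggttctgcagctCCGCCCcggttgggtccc
Jak2: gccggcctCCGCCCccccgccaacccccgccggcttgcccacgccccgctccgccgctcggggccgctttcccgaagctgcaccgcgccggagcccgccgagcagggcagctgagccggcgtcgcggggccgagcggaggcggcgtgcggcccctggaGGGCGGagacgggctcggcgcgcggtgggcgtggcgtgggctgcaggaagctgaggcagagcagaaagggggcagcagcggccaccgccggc
Tet2: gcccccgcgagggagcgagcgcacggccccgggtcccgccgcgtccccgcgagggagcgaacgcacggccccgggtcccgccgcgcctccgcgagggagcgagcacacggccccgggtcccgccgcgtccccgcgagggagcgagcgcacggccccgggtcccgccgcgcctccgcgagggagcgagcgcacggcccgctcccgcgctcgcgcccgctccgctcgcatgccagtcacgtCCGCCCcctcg

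G and C made up 64.0% of the Ppm1d window, 67.2% of Idh2, 80.8% of Jak2 and 83.6% of Tet2, against a median of 55.6% over 21263 promoter windows of the same length. The Tet2 window held 51 CpG dinucleotides. The Jak2 window held 37 CpG, the Ppm1d window 22 and the Idh2 window 17, against a median of 10 over all windows. The GC box occurred in 9 of the 10 genes, all but Trp53, and in 42.6% of all windows. The CCAAT box occurred in Idh2, Ppm1d, Srsf2 and Trp53 and in 35.4% of all windows. Ppm1d was the only member with the CRE, a motif found in 1.9% of all windows, at base 85 before its start. The E-box stood only in a Dnmt3a window (6.6% of all windows) and the NRF1 motif only in Srsf2 (5.2%). The GATA, AP-1 and ETS motifs, found in 8.8%, 6.1% and 3.8% of windows, matched none of the members. A GC box can lie inside a longer match, as where 2 overlap in the Ppm1d window. A match is a run of letters and not a bound site.

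The 81 peaks fell into 10 at start sites, 39 elsewhere inside the genes and 32 in the flanks. Cbl held 13, Ppm1d 11, Dnmt3a 10, Asxl1, Jak2 and Idh2 9 each, Trp53 and Srsf2 7 each, Sf3b1 4 and Tet2 2. Of the flank peaks, 14 lay in another gene, and 2 covered the start of a neighbour: Bcas3 beside Ppm1d, and Jmjd6 with Mettl23 beside Srsf2. The promoter peak of Srsf2 also covered the start of Mfsd11, and that of Trp53 the start of Wrap53, so those values belong to both genes. Dnmt3a, which encodes a de novo DNA methyltransferase, had no peak over any of its 3 annotated starts. The peak taken for its start was centred just upstream of the third, inner one.

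Between 18 and 3 months, 18 of 81 member peaks (22.2%) passed an adjusted p of 0.05 in the edgeR fit over all peaks, 15 lower and 3 higher at 18 months. Over all 75164 tested peaks, 21.0% passed, 11.6% lower and 9.43% higher. The share called among the members is near that background, and nothing is read from it because the genes were chosen with this contrast in view. The median log2 fold change of the members was -0.07, against 0.02 over all tested peaks. The libraries of the 2 ages did not overlap in 7 of 81 peaks, and in 7.24% of all peaks. Of the 7, 5 were lower (5.04% of all peaks) and 2 higher (2.20%). With scaling by total counts in place of TMM the split was 11 lower and 5 higher. Over all peaks that change of scaling moved the split from 8687 lower and 7089 higher to 6629 lower and 11196 higher. Offsets that remove each library's trend on peak abundance or on peak width, called abundance and width offsets from here, gave 10 lower and 3 higher, and 7 lower and 3 higher. Over all peaks these offsets gave 7774 lower and 7287 higher, and 7101 lower and 6424 higher. Without BM-253 the member split was 18 lower and 4 higher, beside 9713 lower and 9032 higher over all peaks.

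**Figure D1:**
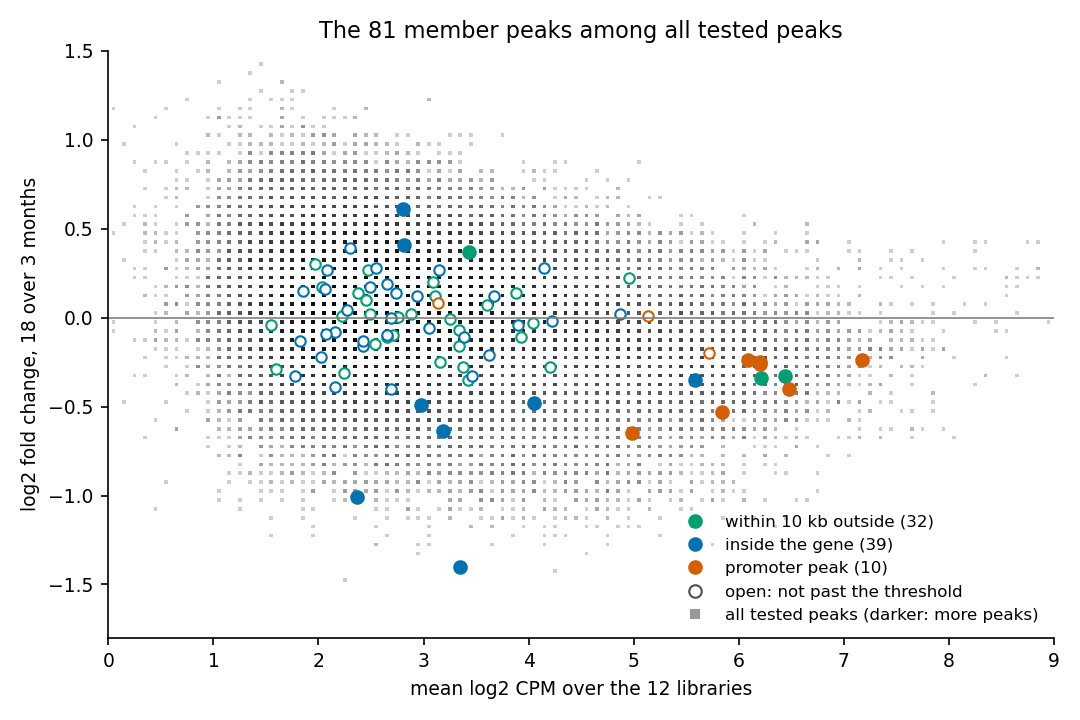
Log2 fold change (18 over 3 months) of the 81 member peaks against their mean log2 CPM over the 12 libraries, over a grey density of all 75164 tested peaks; filled points passed adjusted p 0.05 and colours give the peak's class. The Ppm1d peak at -1.40 lies farthest from zero, and the filled promoter peaks lie at the abundant end between -0.65 and -0.24.

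The calls were uneven between classes of peak. At start sites 7 of 10 were lower and 0 higher with TMM, with a median of -0.24. The count was 3 with total counts (median -0.16) and 2 with abundance or width offsets (medians -0.02 and -0.03). With sex left out of the model it was 4. It was 3 without BM-38, BM-39, BM-42 or BM-245, and 4 without BM-35 or BM-251, each left out alone. With TMM, peaks over start sites were more often lower than higher throughout the table, with a median of -0.17. Of 9079 such peaks, 30.3% were lower and 3.23% higher. Within the abundance range of the member promoters 43.4% of 4128 were lower and 1.21% higher. The start-site shares over the table under the other settings are not given here. Inside the genes 6 of 39 were lower and 2 higher, where 9.97% and 7.75% of such peaks passed in each direction over the table. In the flanks 2 of 32 were lower and 1 higher. Both lower ones lay over the start of another gene, a class with 30.3% lower over the table. The higher one lay in another gene, where 7.75% of such peaks were higher. The flank peaks outside genes and off start sites gave 0 calls, where 7.61% of such peaks over the table were lower and 13.8% higher.

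Ppm1d (chr11:85311254-85347071, plus strand) held 6 of the 15 lower peaks and showed the widest span of values. Ppm1d encodes a phosphatase, also called WIP1, that is induced by p53 and turns the DNA damage response back off, and truncated forms of it are stabilised in clonal hematopoiesis. Its peak of largest loss, chr11:85339210-85339791, is 582 bp wide and lies inside the gene 28.2 kb downstream of the start. At 18 months it measured 6.32, 5.66 and 5.26 CPM in the 3 females and 4.85, 2.99 and 8.28 CPM in the 3 males. At 3 months it measured 15.6, 15.2 and 14.2 CPM in the females and 14.3, 16.0 and 12.4 CPM in the males. Every 18-month library lay below every 3-month library in both sexes. On average it held 14.6 ± 1.29 CPM in young and 5.56 ± 1.74 CPM in old mice (SD, n = 6 each), and the log2 fold change was -1.40 (SE 0.149), or 2.64 times higher at 3 months. This was the 4th largest loss among the 75164 tested peaks, from raw counts of 28 to 153 per library. Leaving out any library gave -1.56 to -1.28, and it passed under every scaling, from -1.47 to -1.33.

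The peak was not alone in that stretch. The peaks 23.8, 26.9 and 29.4 kb downstream of the start were also lower and past the threshold, at -0.49 (SE 0.150), -0.64 (SE 0.149) and -1.01 (SE 0.177). With the lead peak they form an unbroken block of 4 consecutive lower peaks over 6275 bp, chr11:85334628-85340902. The peak at 29.4 kb averaged 6.72 ± 1.40 CPM in young and 3.31 ± 0.436 CPM in old mice, and here too the ages did not overlap. At 26.9 kb the 3-month libraries ran from 6.26 to 13.5 CPM and the 18-month libraries from 5.50 to 8.64 CPM, so the ages overlapped. The overlap came from BM-253, the lowest 3-month library at this peak. At 23.8 kb the call was lost without the 3-month female BM-245, with a log2 fold change of -0.43.

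The nearest peaks on both sides of the block did not pass. The peak 12.7 kb downstream of the start measured 12.0 ± 0.713 CPM in young and 13.0 ± 1.48 CPM in old mice (log2 fold change 0.12, SE 0.120). The peak at 34.1 kb, close to the gene's end, was at -0.39 (SE 0.181) and did not pass. Upstream of the start, the flank peak 2.29 kb away was at 0.02. Past the gene's end, the 2 peaks inside Bcas3 were at -0.11 and -0.01, and the peak over the Bcas3 start went from 82.3 ± 11.1 CPM in young to 65.2 ± 9.22 CPM in old mice (-0.34, SE 0.0980). That peak did not pass with abundance offsets (-0.11) or width offsets (-0.17).

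**Figure D2:**
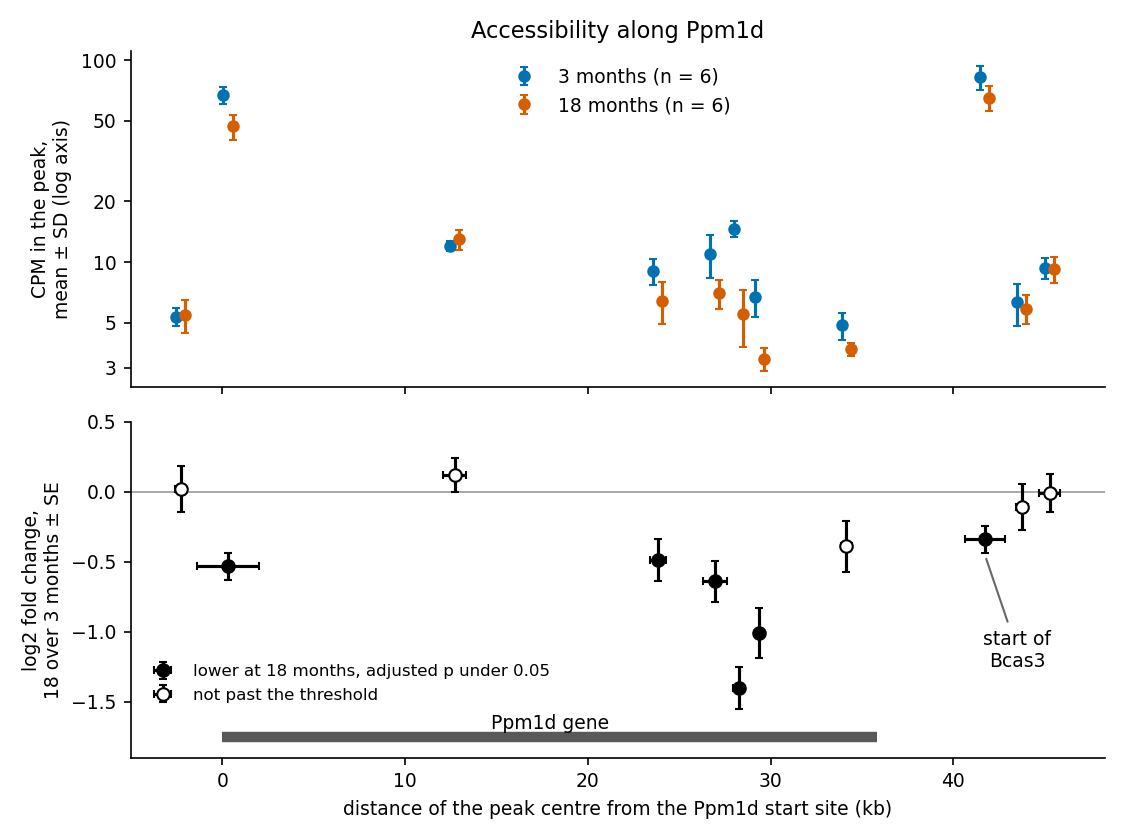
Ppm1d peaks by distance of the peak centre from the start site in kb; the upper panel gives mean CPM ± SD (n = 6 per age, the ages set slightly apart, log axis), the lower panel the log2 fold change (18 over 3 months) ± SE with filled points past adjusted p 0.05, horizontal bars for peak width and a grey bar for the gene. In fold change the 4 block peaks between 23.8 and 29.4 kb lie below their neighbours at 12.7 and 34.1 kb. The block peak at 23.8 kb (-0.49, SE 0.150) is close to the neighbour at 34.1 kb (-0.39, SE 0.181). The promoter peak at the left is lower too.

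The promoter peak of Ppm1d was lower as well, but by less than the lead peak. It spans chr11:85309862-85313259 and measured 52.5, 55.1 and 50.7 CPM in 18-month females and 43.1, 40.2 and 39.6 CPM in 18-month males. At 3 months it measured 68.8, 61.4 and 62.3 CPM in females and 79.2, 67.9 and 64.7 CPM in males. The ages did not overlap, and within the older mice all 3 males lay below all 3 females. On average it held 67.4 ± 6.50 CPM in young and 46.9 ± 6.69 CPM in old mice, with a log2 fold change of -0.53 (SE 0.0964). Set against its own promoter in the same library, the lead peak held 21.8% ± 2.64 of the promoter's CPM at 3 months and 12.0% ± 4.61 at 18 months (SD, n = 6 each). That ratio ran from 18.0% to 24.8% at 3 months and from 7.43% to 20.9% at 18 months. The ages overlap in this ratio through 1 library, the 18-month male BM-40. In contrast the peak at 12.7 kb held 18.0% ± 2.04 of the promoter's CPM at 3 months and 28.3% ± 5.32 at 18 months. Among the other block peaks, the one at 29.4 kb went from 10.0% ± 2.39 at 3 months to 7.15% ± 1.30 at 18 months. The peak at 23.8 kb went from 13.5% ± 2.28 to 14.1% ± 4.78, and that at 26.9 kb from 16.5% ± 4.59 to 15.3% ± 3.84. The ages overlapped in each of these block ratios.

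**Figure D3:**
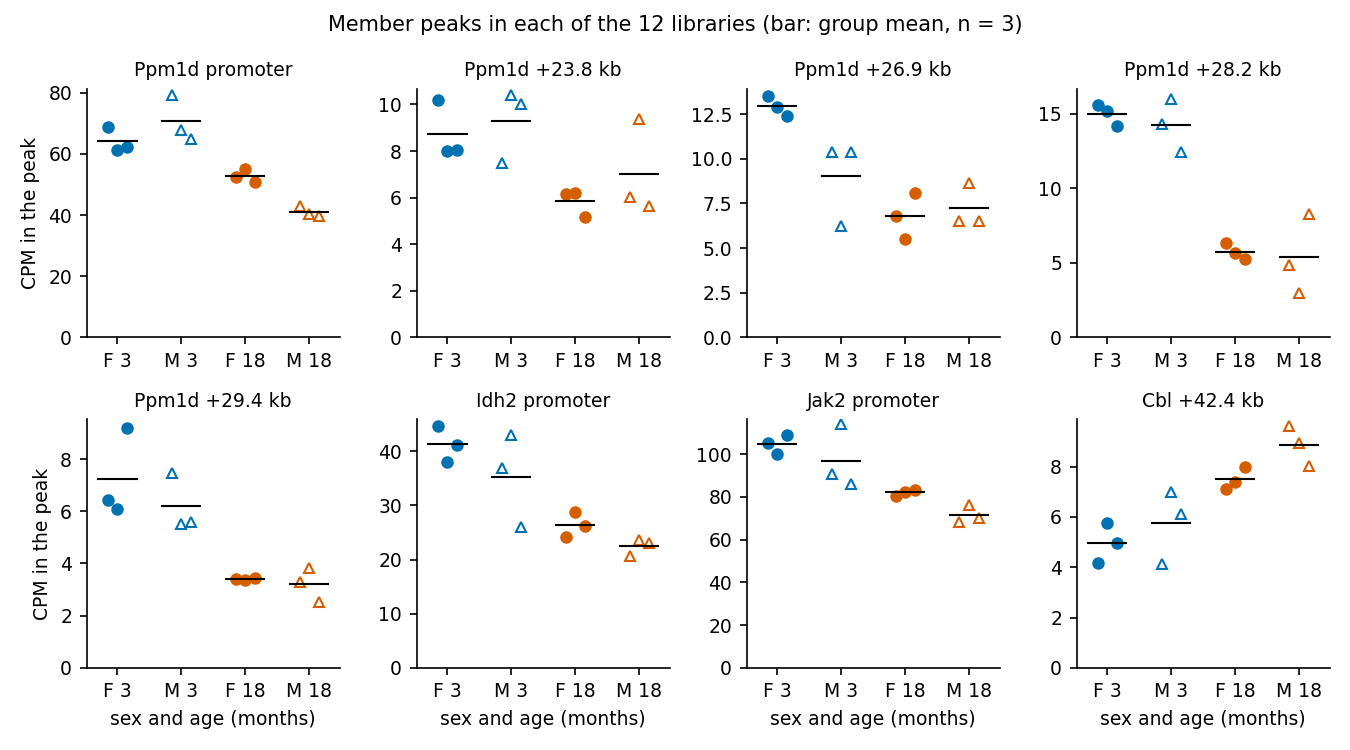
CPM of selected member peaks in each of the 12 libraries, by sex and age in months, circles for females, triangles for males and a bar at the mean of each group of 3; the axes start at 0. The Ppm1d lead peak lies between 2.99 and 8.28 CPM at 18 months and between 12.4 and 16.0 CPM at 3 months, and the Cbl peak at 42.4 kb is the one panel where the older libraries lie higher.

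The promoters of the other genes are ordered here by process. Among the genes of DNA methylation, Tet2, whose enzyme oxidises methylated cytosine, and Dnmt3a did not pass. The Tet2 promoter (chr3:133543699-133545461) ran from 28.2 to 41.5 CPM with a median of 34.4 at 18 months and from 31.7 to 43.3 with a median of 33.4 at 3 months. The ranges overlapped, and the log2 fold change was 0.01 (SE 0.103) with TMM, 0.17 with abundance offsets and 0.14 with width offsets, and passed with none of them. It was at 0.24 (SE 0.134) in females and -0.22 (SE 0.136) in males. Neither passed, nor did the interaction (-0.46, SE 0.191, edgeR adjusted p = 0.408). Tet2 has 1 more peak, at the far end of the gene, which was at 0.30 (SE 0.207) and did not pass. The Dnmt3a peak nearest an annotated start (chr12:3890899-3891607) was at 0.08 (SE 0.138). Over both sexes with TMM none of the 10 Dnmt3a peaks passed, with a range of -0.29 to 0.39. Tet2 and Dnmt3a thus had 0 called peaks over both sexes with TMM, as did Sf3b1. In females alone the Dnmt3a flank peak 15.3 kb upstream of the main start was called higher. The Dnmt3a peak 28.4 kb downstream of the main start, at 0.28 with TMM, was called higher with total counts (0.35), abundance offsets (0.32) and width offsets (0.43). It was named after its value was seen.

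Idh2, a mitochondrial enzyme whose mutant form makes a metabolite that blocks Tet2, had the promoter with the largest fold change. Its peak (chr7:80114294-80115816) measured 24.1, 28.8 and 26.2 CPM in 18-month females and 20.7, 23.7 and 23.1 CPM in 18-month males. At 3 months the libraries ran from 26.0 to 44.7 CPM with a median of 39.6. The 3-month male BM-252, at 26.0 CPM, was the one young library inside the older range. On average it held 38.3 ± 6.69 CPM in young and 24.4 ± 2.77 CPM in old mice (log2 fold change -0.65, SE 0.105), and it was -0.65 in each sex. The other peaks inside Idh2 lay between -0.22 and -0.02 and none passed.

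Asxl1, a partner of the deubiquitinase Bap1 in Polycomb-linked chromatin control, had 1 called peak of 9. Its promoter peak (chr2:153344246-153348686) ran from 57.6 to 77.4 CPM with a median of 66.5 at 18 months and from 72.4 to 89.8 with a median of 78.2 at 3 months. The ages overlapped, and the log2 fold change was -0.26 (SE 0.0902). The promoter did not pass with total counts (-0.19), abundance offsets (-0.04) or width offsets (-0.03). The Asxl1 peak 43.9 kb downstream of the start did not pass over both sexes (-0.40, SE 0.170), but was called lower with abundance offsets (-0.45) and without the males BM-39 or BM-253 (-0.51 each). It was at -0.76 (SE 0.227) in females, which passed, and at -0.04 (SE 0.232) in males, which did not. The interaction did not pass (0.72, SE 0.325, edgeR adjusted p = 0.451).

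Trp53 encodes p53, the transcription factor that Ppm1d restrains. All 7 of its peaks had negative fold changes, from -0.48 to -0.24, and 3 passed with TMM. With abundance offsets the peaks chr11:69588977-69590178 (-0.35) and chr11:69591919-69593301 (-0.37) were also called lower. With TMM they were at -0.33 and -0.35 and did not pass, and they were named after their values were seen. The peak 5 kb downstream of the start (chr11:69584549-69586169) ran from 9.49 to 16.7 CPM with a median of 14.1 at 18 months and from 16.9 to 22.8 with a median of 18.7 at 3 months, with no overlap (-0.48, SE 0.122). The promoter peak (chr11:69577086-69580440), shared with Wrap53, ran from 55.8 to 67.5 CPM with a median of 62.4 at 18 months and from 66.9 to 81.4 with a median of 74.1 at 3 months (-0.24, SE 0.0888). It did not pass with total counts (-0.16), abundance offsets (-0.02) or width offsets (-0.03). The peak 1.68 kb downstream (chr11:69580747-69583331) was at -0.35 (SE 0.0954), and did not pass with abundance or width offsets (-0.16 with each). It falls outside the naming rule and was named after its value was seen.

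Jak2 and Cbl belong to cytokine signalling. Jak2 is the kinase bound to the receptors for erythropoietin and thrombopoietin, and Cbl is a ubiquitin ligase that marks active kinases and receptors for removal. The Jak2 promoter (chr19:29249506-29255013) measured 80.6, 82.2 and 83.4 CPM in 18-month females and 68.1, 76.0 and 70.1 CPM in 18-month males. At 3 months it measured 105, 100 and 109 CPM in females and 90.8, 114 and 85.9 CPM in males. The ages did not overlap, though the closest libraries, 83.4 and 85.9 CPM, were near each other (log2 fold change -0.40, SE 0.0878). The call was lost with abundance offsets (-0.16) and width offsets (-0.15). None of the other 8 Jak2 peaks passed.

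Cbl had called peaks in both directions. Its promoter (chr9:44232407-44235671) ran from 58.9 to 74.8 CPM with a median of 67.3 at 18 months and from 66.6 to 96.3 with a median of 78.2 at 3 months (-0.25, SE 0.0922). With total counts (-0.17), abundance offsets (-0.01) or width offsets (-0.03) it did not pass. Inside the gene, the peak 42.4 kb downstream of the start (chr9:44191290-44191994) was higher: 7.13, 7.41 and 7.98 CPM in 18-month females, 9.61, 8.96 and 8.03 CPM in 18-month males, and 4.13 to 6.99 CPM with a median of 5.36 at 3 months. All 6 older libraries lay above all 6 younger ones (0.61, SE 0.153). The highest 3-month library, at 6.99 CPM, was BM-253. The peak 51.7 kb downstream (chr9:44182000-44182728) was at 0.41 (SE 0.150), and the third higher member peak, in Zfp710 beyond the end of Idh2 (chr7:80084409-80085368), was at 0.37 (SE 0.132). These last 2 were named after their values were seen, and neither passed with abundance offsets (0.37 and 0.34) or width offsets (0.37 and 0.36).

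Srsf2 and Sf3b1 are splicing factors, the first binding exonic enhancers and the second recognising the branch point. The Srsf2 promoter (chr11:116851585-116856989), shared with Mfsd11, ran from 114 to 147 CPM with a median of 135 at 18 months and from 134 to 167 with a median of 159 at 3 months (-0.24, SE 0.0852). It did not pass with total counts (-0.16), and the sign turned with the offsets: the log2 fold change was 0.03 with offsets that follow abundance and 0.01 with offsets that follow peak width. The peak over the starts of Jmjd6 and Mettl23 (chr11:116842291-116844891) was at -0.33 (SE 0.0938), and did not pass with abundance offsets (-0.09) or width offsets (-0.14). The Sf3b1 promoter (chr1:55025855-55028193) ran from 39.4 to 53.9 CPM with a median of 50.1 at 18 months and from 49.7 to 63.9 with a median of 55.8 at 3 months. It did not pass (-0.20, SE 0.0962). The flank peak 2.02 kb upstream of the Sf3b1 start, at 0.22 with TMM, was called higher with total counts (0.30), abundance offsets (0.36) and width offsets (0.39). It too was named after its value was seen.

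The 7 promoter calls were not equally firm. Idh2 and Ppm1d passed under every scaling and with any library left out. Jak2 passed with any library left out but not with offsets that follow abundance (-0.16) or width (-0.15). With those offsets only Idh2 (-0.50 and -0.55) and Ppm1d (-0.32 and -0.31) passed. The erythroid sums given above were lower in the same 18-month libraries as these promoters, and their part in the promoter values was not tested.

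**Figure D4:**
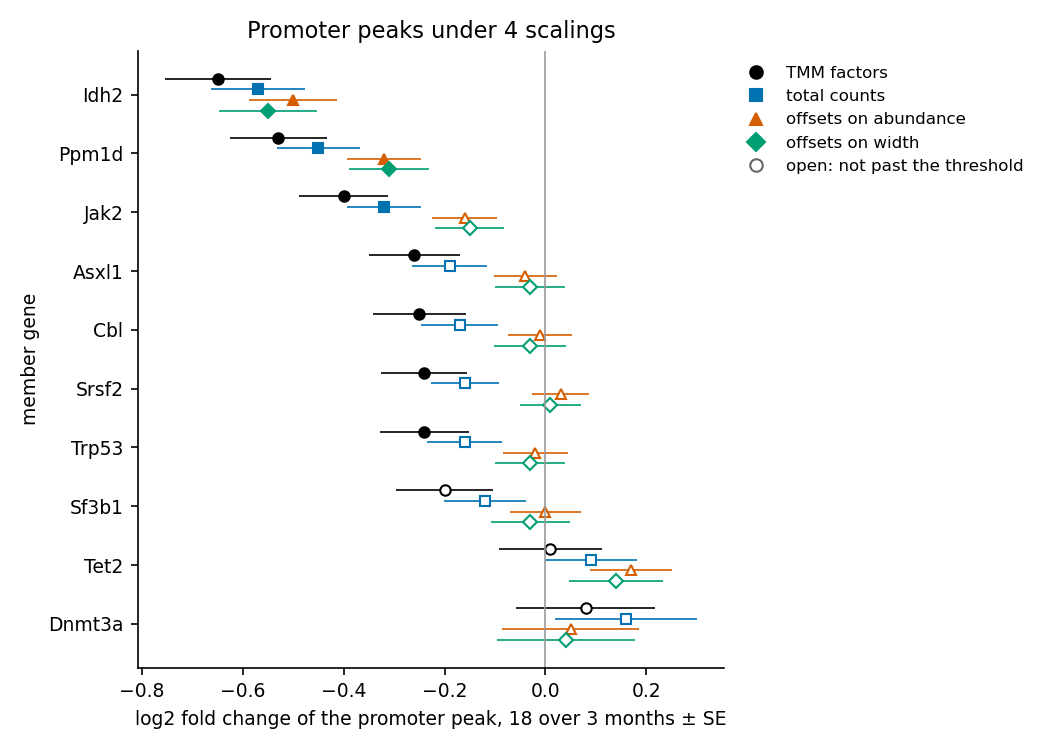
Log2 fold change (18 over 3 months) ± SE of the promoter peak of each member under TMM, total counts, abundance offsets and width offsets; open symbols did not pass adjusted p 0.05. Idh2 and Ppm1d stay filled under all 4 scalings, while Asxl1, Cbl, Srsf2 and Trp53 move toward zero and open.

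Levels between promoters can be compared only per length of peak. At 3 months Srsf2 was highest with 28.8 ± 2.23 CPM per kb (SD, n = 6), followed by Idh2 at 25.1 ± 4.39, Cbl at 24.3 ± 3.00 and Sf3b1 at 24.1 ± 2.59. Trp53 stood at 21.9 ± 1.58 CPM per kb, Ppm1d at 19.8 ± 1.91, Tet2 at 19.8 ± 2.50, Jak2 at 18.3 ± 1.96 and Asxl1 at 17.9 ± 1.47. Neighbours from Srsf2 to Asxl1 in this order overlapped in their ranges. The Dnmt3a peak was the lowest at 11.8 ± 1.06 CPM per kb, and its highest library, at 13.2, lay below every library of the other 9 members. At 18 months Srsf2 stayed highest at 24.5 ± 2.36 CPM per kb. Idh2 moved from place 2 to place 6 at 16.0 ± 1.82 and Ppm1d from 6 to 9 at 13.8 ± 1.97, while Tet2 moved from 7 to 4 at 20.1 ± 2.99.

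Each sex was also compared on its own between ages, with 3 mice per group. In females 8 member peaks were lower and 1 higher, beside 11.9% of all peaks called (6.20% lower, 5.70% higher). In males 9 were lower and 1 higher, beside 11.4% (8.18% lower, 3.21% higher). The 9 calls in females became 5 without BM-35, where the calls over all peaks went from 8943 to 5015. The 10 in males became 4 with abundance offsets and 5 with width offsets, where the calls over all peaks went from 8557 to 5963 and 5862. The calls in males became 5 without BM-38, BM-39 or BM-253 and 4 without BM-251, each left out alone. Over all peaks these fits gave 5320, 4884, 7152 and 4506 calls in males, in that order. Called in the same direction in both sexes were 4 peaks (4.25% of all peaks): the Idh2 and Jak2 promoters and the Ppm1d peaks at 28.2 and 29.4 kb. The Ppm1d lead peak was at -1.38 (SE 0.202) in females and -1.43 (SE 0.212) in males. Its promoter was at -0.28 (SE 0.122) in females, which did not pass, and at -0.78 (SE 0.124) in males, which did.

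The interaction of age and sex was not used to choose the members and was tested. By edgeR's quasi-likelihood test 0 of 81 peaks passed, beside 0.00532% of all peaks, and 10 (12.3%) had an unadjusted p under 0.05, beside 10.0% of all peaks. DESeq2 also called 0. The smallest p stood at the Dnmt3a flank peak 15.3 kb upstream of the main start (chr12:3791128-3792320), with an interaction of -0.93 on the log2 scale (SE 0.228, edgeR adjusted p = 0.197). That peak measured 18.9, 18.3 and 16.2 CPM in 18-month females and 12.4, 13.1 and 12.4 CPM in 18-month males. It measured 12.9, 11.9 and 10.7 CPM in 3-month females and 14.7, 15.1 and 17.8 CPM in 3-month males. All 3 older females lay above the younger ones (0.59, SE 0.160), which passed in females. All 3 older males lay below theirs (-0.33, SE 0.162), which did not pass. For the Ppm1d promoter the interaction was -0.50 (SE 0.174, edgeR adjusted p = 0.322), and for the Jak2 peak 11.4 kb downstream of the start 1.22 (SE 0.448, edgeR adjusted p = 0.348). Those are the 3 smallest p-values, and without the 3-month male BM-252 all 3 passed, with edgeR adjusted p of 0.0398, 0.0442 and 0.0396. Without that library 1621 peaks of the table (2.16%) passed in this test.

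**Figure D5:**
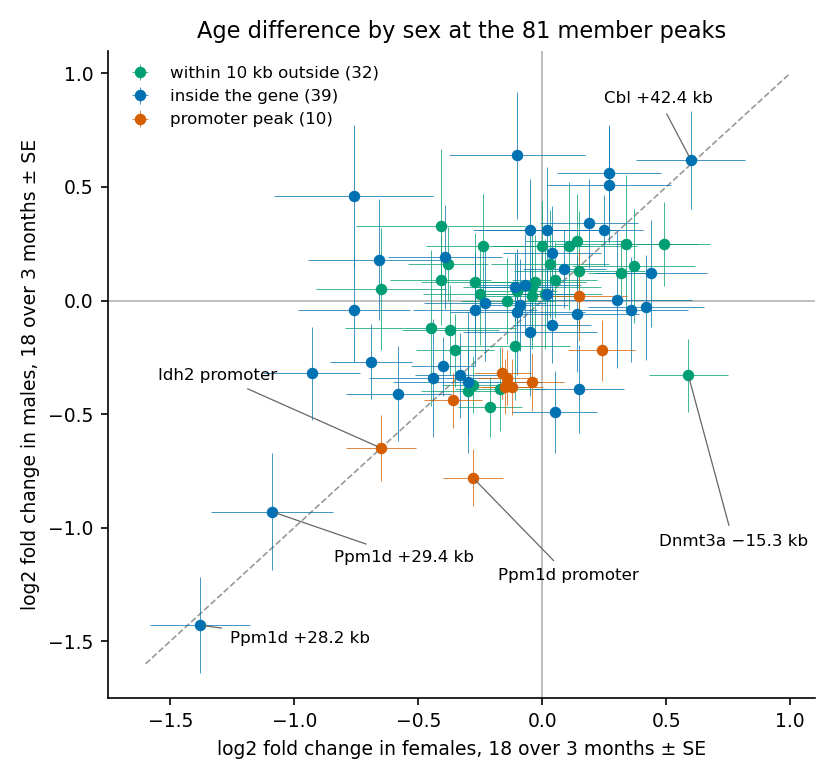
Log2 fold change with age (18 over 3 months ± SE) in males against that in females for the 81 member peaks, coloured by class, with a line of equal change. The Ppm1d peak at 28.2 kb lies on the line near -1.4 in both sexes, and the Dnmt3a flank peak 15.3 kb upstream lies off it at 0.59 in females and -0.33 in males.

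Sex itself gave 0 called member peaks of 81 (edgeR), beside 0.162% of all peaks, most of them on X and Y, and 0.00813% of autosomal peaks. An unadjusted p under 0.05 was found at 2 members (2.47%), beside 7.57% of all peaks, and DESeq2 called 0. The 2 were an Idh2 peak 12.8 kb downstream of the start (log2 male over female 0.54, SE 0.201, edgeR adjusted p = 0.502) and the Idh2 promoter (-0.23, SE 0.105, edgeR adjusted p = 0.630). Next came a Cbl peak 20.6 kb downstream of the start (-0.24, SE 0.132, edgeR adjusted p = 0.699). At 3 months, where 2 of the runs had a mouse of each sex, 0 of 81 passed (edgeR; 0.106% of all peaks and 0.0230% of autosomal ones), and 2 (2.47%) had an unadjusted p under 0.05 beside 6.68% of all peaks. DESeq2 again called 0. The smaller of these p-values was at the Ppm1d peak 26.9 kb downstream of the start (-0.52, SE 0.194, edgeR adjusted p = 0.517). At 18 months sex and run cannot be told apart.

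By a fixed measure of likeness, Pearson's r of log2 CPM over the 12 libraries, the peaks outside the members most like the Ppm1d lead peak were in St7 (r = 0.976), Rnf10 (0.973), Arfgap3 (0.972), Pidd1 (0.972) and near Adam10 (0.971). Their log2 fold changes with age ran from -1.04 in St7 to -0.31 in Pidd1. The points share age, depth and run. On deviations from the 4 group means, where age and sex are removed, the closest were in Cdc6 (0.973), near Phospho2 (0.969), in Ccdc17 (0.963), near Fam131c (0.961) and in Proca1 (0.958). None of the first 5 was among the second 5. Within Ppm1d, r with the lead peak was 0.821 for the promoter, 0.755 for the peak at 29.4 kb, 0.611 at 34.1 kb, 0.558 at 26.9 kb, 0.498 at 23.8 kb and -0.280 at 12.7 kb. For the flank peaks it was 0.757 at the Bcas3 start, 0.158 upstream of the gene, and 0.001 and -0.031 inside Bcas3. These are descriptions picked as the highest of many.

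The wider pathways were read at 1 peak per gene, the most abundant within 3 kb of the start, and genes named as rising or falling passed an edgeR adjusted p of 0.05. Of 138 distinct partner genes with such a peak, 48 were lower and 8 higher, beside 27.6% lower and 3.81% higher over 13738 genes, with a median of -0.18 against -0.15 over all genes. The partner split was 26 lower and 15 higher with abundance offsets, and 26 lower and 11 higher with width offsets. Among other known drivers 21 of 48 were lower and 1 higher. Among the falls was Ikzf1, a lymphoid transcription factor (54.4 CPM at 18 and 79.4 at 3 months, log2 fold change -0.55, edgeR adjusted p = 2.12e-05). The gene that rose was Cebpa, a myeloid transcription factor (0.27, edgeR adjusted p = 0.0436).

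Genes of DNA methylation split 7 lower and 2 higher of 18. Tet3, a relative of Tet2, fell (16.8 ± 2.89 against 26.2 ± 4.48 CPM, -0.64, edgeR adjusted p = 8.43e-05), as did Uhrf1, which guides maintenance methylation (-0.43). Dnmt3l, a cofactor of Dnmt3a, and Gadd45b rose by 0.57 and 0.25. Genes of the p53 pathway split 8 lower and 3 higher of 23. The largest falls were at the targets Phlda3 (-0.71) and Trp53inp1 (-0.51). The genes that rose were Fas (0.45) and Pmaip1 (0.38), which promote cell death, and the cell-cycle inhibitor Cdkn1a (0.37). Of other death genes on the list Bbc3 fell (-0.36) and Bax was at -0.01, and these 2 and Cdkn1a were named after their values were seen.

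Partners of Jak2 and Cbl split 8 lower and 2 higher of 24. Epor, the erythropoietin receptor, fell from 51.4 ± 8.41 to 29.5 ± 2.36 CPM (SD, n = 6 each; -0.80, edgeR adjusted p = 5.26e-08) and is itself on the erythroid marker list, where 20 of 20 genes were lower. Stat5b, a transcription factor activated by Jak2, fell by 0.54 on the log2 scale. Cblc, a relative of Cbl, and Csf2rb, the shared receptor chain for several myeloid cytokines, rose by 0.52 and 0.39. On the myeloid marker list 11 of 24 genes were higher and 0 lower, and on the stem and progenitor list 1 of 11 was higher and 2 lower. For B cells the counts were 0 and 0 of 15, and for T cells 1 and 1 of 10. Chromatin partners of Asxl1 were lower in 8 of 19 and higher in 0, led by Foxk2 (-0.59) and Ezh2 (-0.52). Splicing partners were lower in 3 of 22 and higher in 0, led by Zrsr1 (-0.52) and Srsf1 (-0.35).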

How the data were processed

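The authors deposited counts of reads in 12 libraries over 75281 consensus peaks, whole numbers with a smallest value of 1. Per the submitters' processing notes, Trimmomatic, BWA, MACS2, DiffBind and edgeR were used on mm10. Versions, duplicate removal, cut-site shift and the consensus rule are not given in the sources used here. The start of 1 peak, not a member, is written in scientific notation and is rounded. Groups, mouse numbers and runs came from the sample labels. A floor of 1 compresses folds of the lowest peaks; members held at least 16 counts.

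A peak was kept where 2 or more libraries exceeded 1 CPM, which left 75164. They were scaled by TMM and tested with edgeR 4.0.16 in R 4.3.3 (glmQLFit, glmQLFTest) in a model of age and sex, and in a model with a mean per group for effects within a sex and the interaction. P-values were adjusted by Benjamini-Hochberg over all tested peaks with a threshold of 0.05. DESeq2 1.42.0, other filters, left-out libraries and other scalings were alternatives. Among the scalings, offsets removed each library's smooth trend (loess, span 0.3) of log ratio on abundance or on peak width. Tested on simulated counts for the age comparison over 75164 peaks, the fit recovered 37 of 100 peaks at 1.5-fold and 92 of 100 at 2-fold, with 12 unchanged peaks called. Only 200 peaks were changed in the simulation, while 21.0% of tested peaks passed in the data. The Benjamini-Hochberg cutoff was therefore stricter in the simulation, and these counts do not give the recovery in the data. CPM is the count scaled by TMM. Mouse numbers differ between libraries, so each was taken as 1 mouse.

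Promoter windows and gene positions are RefSeq on GRCm38.p6; all 10 members matched by symbol. The members and lists were chosen with earlier results of these data known. Peaks named in the text were the promoter peak of each gene, its called peak of largest fold change, every Ppm1d peak, and the 3 members with the smallest p for sex or interaction; partners named were the 2 largest rises and falls per list, of which 1 is not reported here.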

Additional observations from a re-analysis of the deposited data

Results flagged for a closer look

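In groups of 6 libraries of 1 age, the highest or lowest library of a named member peak was checked for standing far from the rest. This was so in 3 of 62 groups, near the 1 in 20 that chance gives. At the Ppm1d peak 23.8 kb downstream of the start, the 18-month male BM-39 measured 9.39 CPM, and the next highest library of that age 6.22 CPM. At the peak over the starts of Jmjd6 and Mettl23 beside Srsf2, the 18-month female BM-36 measured 93.7 CPM and the next 76.1 CPM. At the Tet2 promoter, the 3-month male BM-253 measured 43.3 CPM and the next 35.8 CPM.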

How the results depend on the processing

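No paired analysis was possible because mouse numbers are not shared between the groups. The sequencing run could be blocked only at 3 months: with run as a factor, 0 member peaks were called by sex, and 43 of all peaks against 80 without it. With offsets that follow peak width, 10 member peaks were called by age (7 lower, 3 higher) and 37 partner genes (26 lower, 11 higher), against 18 and 56. Over all peaks the calls by age went from 15776 to 13525. In males 4 member peaks were called with abundance offsets and 5 with width offsets, against 10. Over all peaks these counts in males were 5963 and 5862, against 8557. The Srsf2 promoter turned from -0.24 to 0.03 and 0.01 under these 2 offsets; the cause was not tested. Leaving out each library in turn gave 12 to 22 member calls by age, 5 to 12 in females and 4 to 14 in males. Over all peaks the same fits gave 12227 to 18745 calls by age, 4691 to 11796 in females and 4506 to 12147 in males. Member calls ran from 0 to 3 for the interaction, and from 0 to 0 for sex over both ages and at 3 months. The count of 5 in females came without the 18-month female BM-35. Counts of 5, 5, 4 and 5 in males came without the 18-month males BM-38 and BM-39 and the 3-month males BM-251 and BM-253, and the 3 interaction calls without the 3-month male BM-252.

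Besides the Ppm1d peak 23.8 kb downstream of the start, lost without BM-245 at -0.43, 6 more calls were lost with 1 library left out. They were the promoters of Trp53 and Cbl (each lost without any 1 of 8 of the 12 libraries), Srsf2 (any of 6) and Asxl1 (any of 4). Also among the 6 were the Cbl peak 51.7 kb downstream of the start and the Zfp710 flank peak (any of 8 each). Where lost, log2 fold changes were -0.26 to -0.21 for Trp53, -0.27 to -0.16 for the Cbl promoter and -0.25 to -0.21 for Srsf2. They were -0.26 to -0.23 for Asxl1, 0.33 to 0.43 for the Cbl peak and 0.31 to 0.37 for the flank peak. The 18-month female BM-42 and the 18-month males BM-38 and BM-39 were in each of these 6 sets. The 3-month female BM-245 was in all but that of the Cbl peak. The 18-month female BM-35 was in those of Srsf2, Trp53 and both Cbl peaks, and the 18-month male BM-40 in those of Trp53 and both Cbl peaks. The 3-month male BM-251 was in those of Srsf2, Trp53 and both Cbl peaks, and the 3-month female BM-244 in those of Trp53, the Cbl peak and the flank peak. BM-252 was in those of the Cbl peak and the flank peak, BM-253 in that of the Cbl promoter, and BM-36 and BM-243 in that of the flank peak. Over the other settings, 218 of 248 values of the peaks named by rule or called by age kept the same call: lower, higher or not called. Among peaks not called the sign could turn, as at the Ppm1d peak 2.29 kb upstream (0.02 with TMM, -0.05 with width offsets). The 248 values leave out the Dnmt3a peak at 28.4 kb and the Sf3b1 peak 2.02 kb upstream, each not called with TMM but called under 3 other scalings. They also leave out the Trp53 peaks at -0.35 and -0.37 with abundance offsets, called lower there but not with TMM. Of simulated 1.5-fold changes, 37 of 100 were recovered. That simulation changed only 200 peaks, so this count does not give the recovery in the data.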
